A study of Mus musculus with 24 samples.

Results

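The step from the virgin state to dp12 was examined in mice labelled mutant, in a study whose title concerns Brca1 and pregnancy. It was taken as the difference between the 3 arrays labelled M-dp12 and the 3 labelled M-V, 6 of the 24 arrays in the series. The other arrays held wild type and mutant at V, dp12, dp18 and Lac10, again 3 per group, and the wild-type V and dp12 arrays were used here for comparison. Every mouse, wild type and mutant alike, had a background that was mainly FVB, with smaller parts of 129SVEV and of Black Swiss. The codes V and dp12 were read as virgin and day 12 of pregnancy, although the design text calls its stage numbers months. Neither the tissue, nor the mutant allele, nor a promoter driving a recombinase is named in the labels. One protocol field mentions RNA pulled down through PAB-1, where the others speak of total RNA. Mutant titles each carry a different animal number, wild-type titles are numbered 1, 2 and 3 within each stage, and the mutant titles give body weights of 24, 25 and 22 g for virgin replicates 1, 2 and 3 and of 47, 39 and 29 g for dp12 replicates 1, 2 and 3. The mutant arrays are read as different mice from these numbers and weights. Wild-type titles also give differing weights, of 27, 25 and 23 g at V and of 38, 42 and 34 g at dp12. By the same reading these are different mice. Wild-type dp18 replicate 1 has no weight, and Lac10 replicates 2 and 3 share 39 g. Nothing else states that the arrays are separate animals, so part of the wild-type spread behind each p-value may still be technical.

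In mammary tissue, pregnancy hormones drive ductal and alveolar cells to divide and then to prepare for milk secretion. Hormone-sensing luminal cells carry the oestrogen and progesterone receptors and signal to their neighbours, whereas alveolar progenitors respond to prolactin through STAT5 and ELF5. BRCA1 acts in homologous recombination, protects replication forks, and restrains oestrogen receptor signalling.

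Epithelial transcripts were present in all 6 arrays. Krt8, a luminal keratin, read 11.54, 12.23 and 12.15 in virgin replicates 1, 2 and 3 and 11.84, 11.97 and 11.91 at dp12, on the deposited log2 intensity scale that is used throughout. The basal keratin Krt14 read 9.06, 8.62 and 9.00 and then 9.62, 8.80 and 9.20, and the milk protein Csn2 lay between 10.17 and 12.94 over the 6 arrays. Of the adipocyte markers, Adipoq stayed between 4.52 and 5.06, below the lowest median of any array (5.31), while Fabp4, which other cells also express, lay between 11.42 and 11.72. Correlations over genes were 0.971 to 0.978 among the mutant virgin arrays, 0.987 to 0.990 among the dp12 arrays and 0.953 to 0.972 between the groups. The median SD over genes was 0.22 in mutant virgins and 0.13 at dp12. All of these are whole-sample measurements, in which more or fewer cells of a type cannot be told apart from more or less RNA per cell.

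From V to dp12 the mutants raised genes of cell division, milk and fatty acid synthesis and lowered genes of hormone-sensing cells. With limma on all 24 arrays and Benjamini-Hochberg adjustment, 460 of 15234 genes tested were higher at dp12 (3.02%) and 217 lower (1.42%) at an adjusted p under 0.05, 677 in all (4.44%). The changes were large: 356 of the higher genes exceeded 1 on the log2 scale and 182 of the lower genes passed -1, while the median over all genes tested was 0.01. In all 677 the 3 virgin and 3 dp12 values did not overlap, as in 37.4% of all genes tested. Higher genes made up 67.9% of the calls, but 18.7% with arrays centred on the median level of the housekeeping list, which moved the median of all genes to -0.36, and 42.9% with arrays shifted by that list's deviations, which moved it to -0.17. The counts also depended on the fit and on single arrays. Array weights gave 2594 higher and 1510 lower genes, a fit of the compared groups alone 1769 and 1002, and omission of the 3 arrays of lowest correlation 1115 and 490. Leaving out virgin replicate 2 reduced the higher genes to 165 and the lower to 97, and leaving out virgin replicate 3 reduced the higher to 262. With dp12 replicate 1 omitted there were 299 higher and 131 lower, with replicate 2 omitted 193 and 88, and with replicate 3 omitted 191 and 93. The values came with no detection calls. Of the 460 higher genes, 94 lay below the median of every virgin array of the mutants. Of the 217 lower genes, 45 lay below the median of every dp12 array. For both kinds the fold is that of the measured values and is limited by the dim group. The limit holds in part for the folds given below for Apln and Brca1, above the median in 1 mutant virgin array, and for Gldc and Wap, above it in 2.

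**Figure D1:**
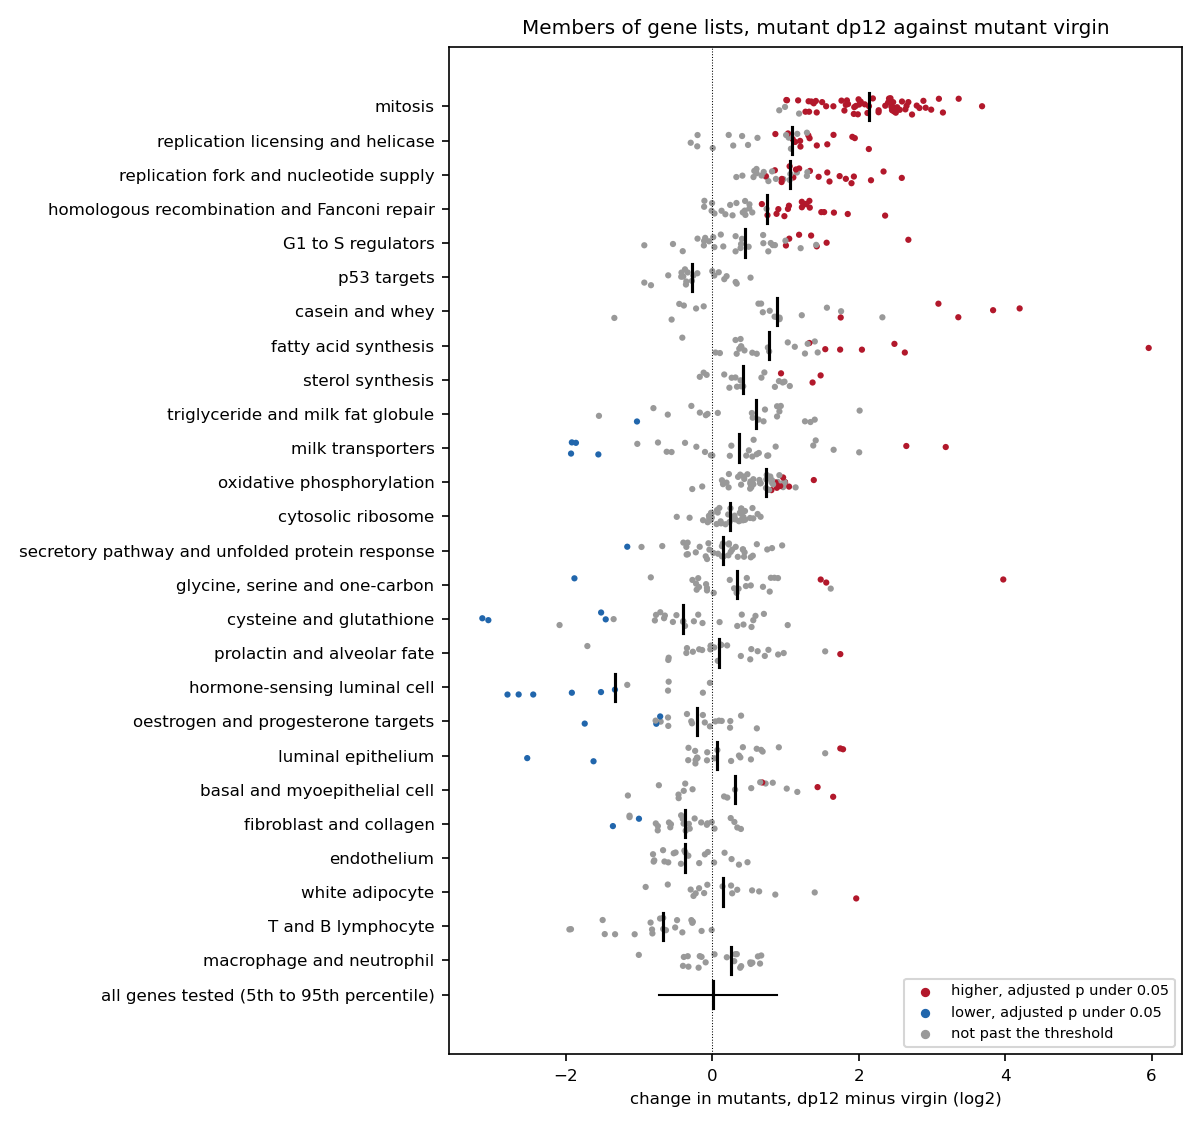
Change in mutants from virgin to dp12 (log2) for the tested members of 26 gene lists, 1 point per gene, red where higher and blue where lower at an adjusted p under 0.05 (limma), grey otherwise. Black bars are list medians and the lowest line spans the 5th to 95th percentile of all genes tested; the mitosis list has a median of 2.14 and the hormone-sensing luminal cell list one of -1.33, against 0.01 over all genes.

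Cell division gave the broadest rise. Of 61 mitosis genes tested, 58 rose (3.02% of all genes did) and none fell, with a median change of 2.14 and a range of 0.92 to 3.69; 60 had virgin and dp12 values that did not overlap. Among the 58, 19 lay below the median of every mutant virgin array, so the size of their rise is limited by dim virgin values. The 3 that did not pass were Smc4, a condensin subunit (1.19 ± 0.42, SE), Cdc25b, a phosphatase that activates CDK1 (0.99 ± 0.33), and Mad2l1, a spindle checkpoint protein (0.92 ± 0.56).

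Promoters of the division genes with the largest rises are shown because CCAAT boxes and the cell cycle homology region (CHR) are known elements of genes that peak at G2 and M. The sequences are RefSeq promoters of GRCm38.p6, from 250 bases before to 50 after a gene's start, read 5′ to 3′ on the gene's strand, with capitals for CCAAT and for the CHR (TTTGAA or TTCGAA) on either strand. Mki67 lies at chr7:135716330-135716629, minus strand, Ccnb2 at chr9:70421505-70421804, minus strand, Kif11 at chr19:37376132-37376431, plus strand, and the first of 2 overlapping Ect2 promoters at chr3:27153829-27154128, minus strand.
Mki67: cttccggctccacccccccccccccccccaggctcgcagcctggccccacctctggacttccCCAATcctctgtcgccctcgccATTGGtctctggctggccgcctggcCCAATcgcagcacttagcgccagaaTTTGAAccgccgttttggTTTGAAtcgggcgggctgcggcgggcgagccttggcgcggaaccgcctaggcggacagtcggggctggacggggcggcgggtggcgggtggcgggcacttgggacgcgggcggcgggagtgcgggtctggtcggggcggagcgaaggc
Ccnb2: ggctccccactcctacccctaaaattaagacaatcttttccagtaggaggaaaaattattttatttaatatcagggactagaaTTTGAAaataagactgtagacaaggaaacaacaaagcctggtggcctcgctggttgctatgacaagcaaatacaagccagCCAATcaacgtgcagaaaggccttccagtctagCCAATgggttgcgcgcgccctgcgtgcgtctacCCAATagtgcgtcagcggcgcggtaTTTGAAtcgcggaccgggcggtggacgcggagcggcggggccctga
Kif11: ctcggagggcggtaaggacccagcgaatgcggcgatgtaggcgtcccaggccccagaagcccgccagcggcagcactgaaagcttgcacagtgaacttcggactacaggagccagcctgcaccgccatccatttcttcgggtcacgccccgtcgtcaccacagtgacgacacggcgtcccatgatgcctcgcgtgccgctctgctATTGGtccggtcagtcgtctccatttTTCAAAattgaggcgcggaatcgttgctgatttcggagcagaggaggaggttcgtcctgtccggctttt
Ect2: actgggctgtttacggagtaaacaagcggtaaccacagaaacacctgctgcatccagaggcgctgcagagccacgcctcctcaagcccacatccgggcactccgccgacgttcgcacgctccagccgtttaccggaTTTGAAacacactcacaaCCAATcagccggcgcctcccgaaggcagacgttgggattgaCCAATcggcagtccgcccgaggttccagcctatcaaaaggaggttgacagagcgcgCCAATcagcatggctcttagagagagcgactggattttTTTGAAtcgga
Mki67 and Ccnb2 each held 3 CCAAT and 2 CHR matches, the Kif11 promoter 1 of each. The genes shown were picked by size of rise from called mitosis genes with both kinds of match, so their matches follow from the choice. Over the mitosis list, 52 of 61 genes matched 58 promoters, of which 72.4% held CCAAT and 70.7% a CHR match. Among 14840 promoters of the genes tested, 36.9% held CCAAT and 14.6% a CHR match. Both were present in 56.9% of the mitosis promoters and 5.8% of those of the genes tested. Among promoters of all genes called higher 55.4% held CCAAT and 28.2% a CHR match, against 32.4% and 16.9% for genes called lower. A match describes letters only; no binding was measured.

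Mki67, which encodes the nuclear antigen used to mark cycling cells, read 7.02, 6.21 and 5.42 in virgin replicates 1, 2 and 3 and 9.21, 9.59 and 9.94 at dp12. Every dp12 array lay more than 2 units above every virgin array, and the difference was 3.37 ± 0.54 (SE, n = 3 and 3; 10.3-fold; adjusted p = 0.000831). Ect2, the exchange factor that starts cytokinesis, read 6.48, 4.89 and 4.75 and then 8.63, 9.09 and 9.45, a rise of 3.69 ± 0.64 (adjusted p = 0.00156). The spindle motor Kif11 rose by 3.10 ± 0.51 (adjusted p = 0.00099), from values of 4.81 to 5.99 to values of 7.91 to 8.82. Ccnb2, a mitotic cyclin, went from 5.92 to 7.18 in virgins to 9.26 to 9.99, and Cdk1, its kinase, from 5.31 to 6.61 to 8.53 to 8.98 (2.99 ± 0.46; adjusted p = 0.000702). In all 5 genes virgin replicate 1 was the highest virgin array and dp12 replicate 3, the lightest of the dp12 mice, was the highest at dp12. The same order appeared in the list as a whole, whose median level relative to each gene's mean was -0.62, -1.13 and -1.21 in the virgin arrays and 0.79, 1.16 and 1.53 at dp12. Between 48 and 59 mitosis genes were called when any 1 array of the 4 virgin and dp12 groups was left out, and 60 with body weight as a covariate.

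Genes that license and open replication origins rose in part. Of 28 tested, 14 rose and none fell, with a median change of 1.09. Ticrr (Treslin), which loads CDC45 at origins, read 5.20, 4.58 and 4.59 and then 6.60, 6.84 and 7.34, a rise of 2.14 ± 0.31 (adjusted p = 0.000466). Gins1, a subunit of the active helicase, rose by 1.95 ± 0.31 (adjusted p = 0.000831) and is counted among the 14. It exceeded the array median in no virgin array of either genotype and was tested only through dp12 arrays, in which it was high. Among the MCM2 to MCM7 helicase subunits, Mcm5 read 7.60, 6.83 and 6.58 in virgins and 8.60, 8.97 and 9.18 at dp12 (1.91 ± 0.44; adjusted p = 0.0142). Mcm2 (1.66 ± 0.46; adjusted p = 0.0437) and Mcm3 (1.57 ± 0.44; adjusted p = 0.0454) passed narrowly, whereas Mcm7 (1.29 ± 0.47; adjusted p = 0.139), Mcm4 (1.16 ± 0.44; adjusted p = 0.161) and Mcm6 (1.08) did not. The origin recognition subunits differed: Orc1, the subunit whose level cycles, rose by 0.86, while Orc2, Orc3 and Orc4 changed by 0.01, -0.20 and -0.20 and were not called. Without single mutant arrays the count of 14 fell to 7 (virgin replicate 2), 7 (virgin replicate 3), 8 (dp12 replicate 2) and 4 (dp12 replicate 3), and Mcm5 then lost its call in each case. Mcm2 and Mcm3 kept theirs without virgin replicate 1 but not without any other mutant array, and Mcm2 lost it without wild-type virgin replicate 2 or 3 or wild-type dp12 replicate 3, Mcm3 without wild-type virgin replicate 3 or any wild-type dp12 array.

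At the fork and in nucleotide supply, 19 of 37 genes tested rose, none fell and all 37 changes were above 0 before any rescaling, with a median of 1.06. Pole, the catalytic subunit of the leading-strand polymerase, read 5.79, 4.57 and 4.25 and then 7.23, 7.31 and 7.84 (2.59 ± 0.36; adjusted p = 0.000264); a second probe set of this gene had the opposite sign, and with probe sets averaged the rise was 1.20. Rrm2, the regulated subunit of ribonucleotide reductase, was tightly grouped at dp12, at 7.70, 7.91 and 7.90 against 5.91, 5.25 and 5.33, a rise of 2.34 ± 0.31 (adjusted p = 0.000217) that came to 1.21 with probe sets averaged. Its partner Rrm1 rose by 1.90 ± 0.44 (adjusted p = 0.0148), the flap nuclease Fen1 by 2.17 ± 0.44 (adjusted p = 0.00578) and Uhrf1, which recruits maintenance methylation, by 1.93 ± 0.36 (adjusted p = 0.00265). Pcna, the sliding clamp, did not pass, at 0.33 ± 0.35 (adjusted p = 0.811). The count was 4 without virgin replicate 2 and 6 without virgin replicate 3, dp12 replicate 2 or dp12 replicate 3; Rrm1 was not called in these 4 cases, nor Fen1 without virgin replicate 2. Fen1 was also lost with body weight as a covariate (adjusted p = 0.0995), and its rise was 1.16 with probe sets averaged.

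The promoter of Mcm5 is shown because E2F sites mark genes of S phase; it lies at chr8:75109259-75109558, plus strand, with capitals for E2F matches (TTCCCGC or TTGGCGC, either strand). CCAAT read on the opposite strand can share letters with the second E2F form.
Mcm5: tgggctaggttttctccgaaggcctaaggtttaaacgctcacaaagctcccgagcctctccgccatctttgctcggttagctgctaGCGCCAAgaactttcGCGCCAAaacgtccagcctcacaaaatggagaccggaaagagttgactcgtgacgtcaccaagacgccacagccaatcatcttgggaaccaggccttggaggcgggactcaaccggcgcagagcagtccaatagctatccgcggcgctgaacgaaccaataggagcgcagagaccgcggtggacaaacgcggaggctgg
It held 2 E2F and no CHR match. Mcm5 was picked by size of rise from called licensing genes with E2F letters in a promoter, so its E2F matches follow from the choice. E2F letters were present in 51.9% of 27 promoters of the licensing list and 43.6% of 39 promoters of the fork list, against 19.0% of the mitosis promoters and 10.4% of those of the genes tested. CHR letters were in 25.9% of the licensing and 12.8% of the fork promoters.

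Repair genes rose as well. In the list of homologous recombination and Fanconi repair, 19 of 37 genes tested rose and none fell, with a median change of 0.74. Brca1 itself read 5.49, 4.85 and 4.33 in virgins and 6.39, 6.48 and 6.79 at dp12, a rise of 1.66 ± 0.31 (3.16-fold; adjusted p = 0.00244). Wild-type arrays read 5.26, 4.67 and 5.18 at V and 6.43, 5.74 and 6.13 at dp12, so the mutant and wild-type values overlapped at V, and 2 of the 3 mutant dp12 values lay above all wild-type ones. Where the probes lie relative to the altered part of the gene is not given in the sources used here, so these levels do not check the genotype. Its partner Bard1 rose by 1.22, Brca2 by 1.25, Palb2, which links the 2 proteins, by 0.68, and Brip1, a helicase bound by BRCA1, by 1.28. Chek2, a checkpoint kinase, rose by 2.36 ± 0.40 (adjusted p = 0.00118), from 5.97, 4.80 and 5.42 to 7.71, 7.64 and 7.93. The resection nuclease Exo1 rose by 1.85 ± 0.30 (adjusted p = 0.000831), H2ax by 1.53 ± 0.36 (adjusted p = 0.0159) and the helicase Blm by 1.49 ± 0.31 (adjusted p = 0.00643). Wee1, which holds CDK1 inactive, changed by -0.00 ± 0.62 and was not called. The list's count was 9 without virgin replicate 2, 10 without dp12 replicate 2 and 7 without dp12 replicate 3, and 8 with housekeeping centring; H2ax lost its call without any of these 3 arrays and Blm without virgin replicate 2 or dp12 replicate 3.

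Regulators of entry into S phase moved less as a group. Of 34 tested, 7 rose and none fell, with a median change of 0.45. E2f8, a repressor of the E2F family that peaks late in the cycle, read 5.56, 4.97 and 4.77 and then 7.63, 7.58 and 8.12 (2.68 ± 0.40; adjusted p = 0.000585). Foxm1 and Mybl2, which drive G2 and M genes, rose by 1.56 ± 0.29 (adjusted p = 0.00297) and 1.43 ± 0.22 (adjusted p = 0.000667); 1 other Mybl2 probe set had the opposite sign, and the averaged probe sets rose by 0.69. Skp2 (1.35 ± 0.33; adjusted p = 0.0203), a ubiquitin ligase subunit that targets CDK inhibitors, and Cdc25a (1.19 ± 0.33; adjusted p = 0.0408) also rose. Neither was called without virgin replicate 2 or 3 or dp12 replicate 2 or 3, and Cdc25a was also lost without dp12 replicate 1, wild-type virgin replicate 3 or wild-type dp12 replicate 2. Ccnd1, the D cyclin of mammary epithelium, lay between 9.39 and 10.16 in virgins and 10.01 and 10.44 at dp12 (0.39 ± 0.45; adjusted p = 0.833). Myc did not pass either (-0.40 ± 0.41; adjusted p = 0.79). None of 21 p53 target genes tested passed in either direction, and their median was -0.28. The largest change among them was that of Cdkn1a, the CDK inhibitor p21, at 9.41, 9.83 and 9.76 in virgins and 8.96, 8.65 and 8.61 at dp12; the values did not overlap, but the difference of -0.93 ± 0.35 missed the threshold (adjusted p = 0.168). It passed under 4 alternatives, namely both housekeeping scalings, array weights and the compared groups alone, with an adjusted p down to 0.000903.

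**Figure D2:**
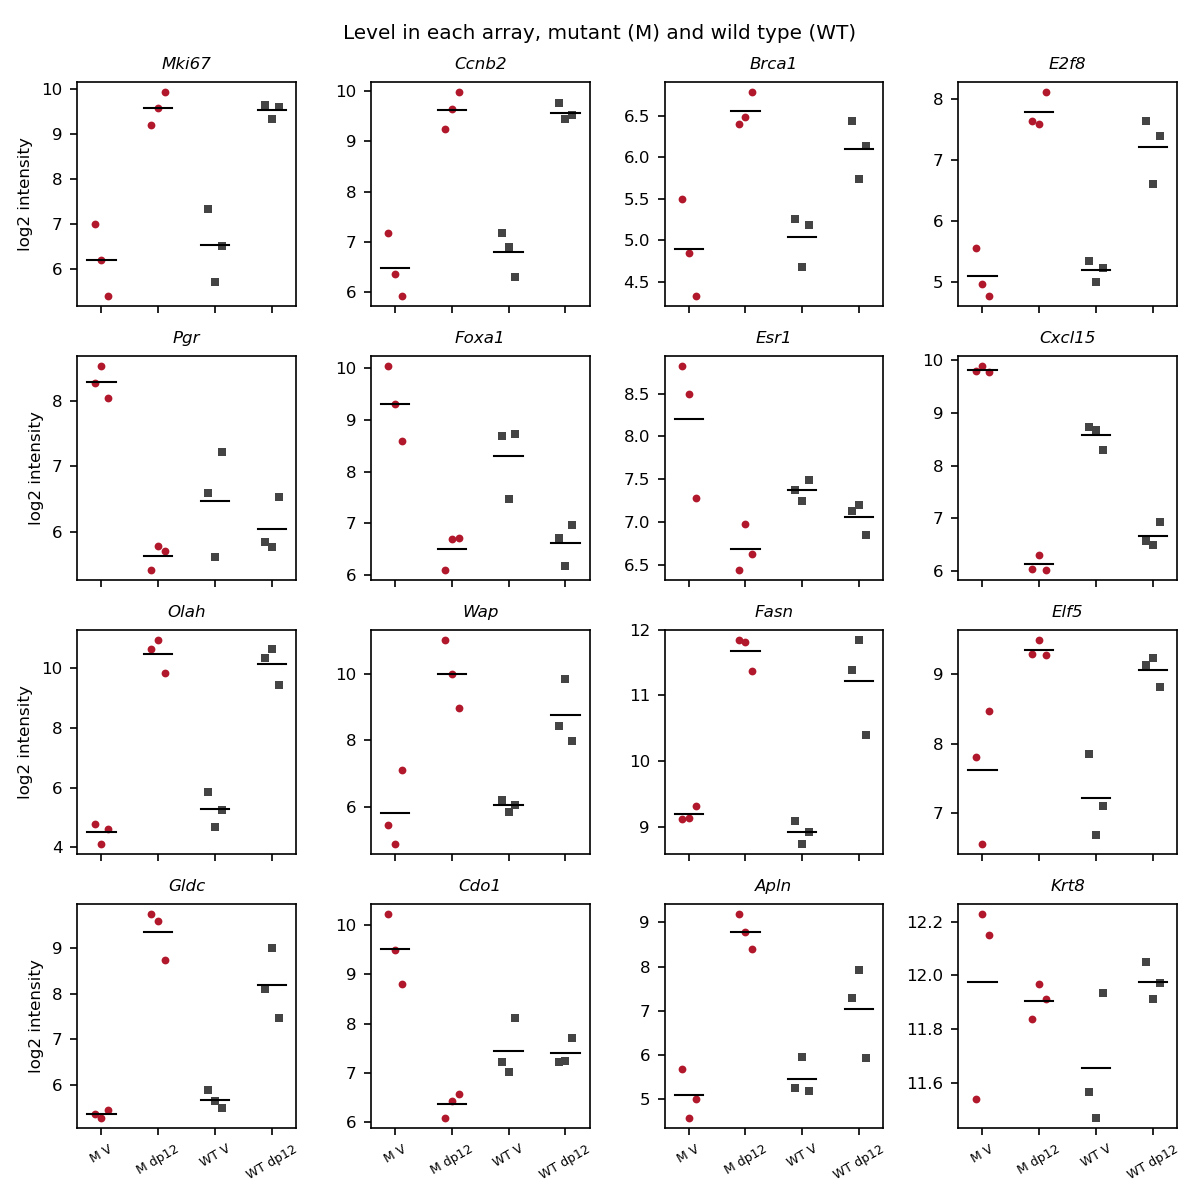
Log2 intensity of 16 genes in each array of mutant (M, red circles) and wild type (WT, grey squares) at V and dp12, with black lines at group means of 3 arrays and a separate vertical scale per gene. Division and milk genes are higher at dp12 in both genotypes, and Pgr and Cdo1 are separated between V and dp12 in mutants while their wild-type values overlap.

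Transcripts of hormone-sensing luminal cells fell. Of 11 tested, 6 fell (1.42% of all genes did), none rose and all 11 changes were below 0, with a median of -1.33. Pgr, the progesterone receptor, read 8.27, 8.53 and 8.05 in virgins and 5.43, 5.78 and 5.71 at dp12, a fall of -2.64 ± 0.32 (6.25-fold lower; adjusted p = 0.000117). Foxa1, the pioneer factor of the oestrogen receptor, read 10.04, 9.30 and 8.59 and then 6.11, 6.71 and 6.73 (-2.80 ± 0.46; adjusted p = 0.00104). Esr1, the oestrogen receptor itself, went from 8.83, 8.49 and 7.28 to 6.44, 6.98 and 6.63 (-1.52 ± 0.41; adjusted p = 0.0357), with virgin replicate 3 closest to the dp12 arrays. Prom1, a surface marker of these cells, fell by -2.44 ± 0.29 (adjusted p = 0.000106) and Aqp5, a water channel, by -1.92 ± 0.38 (adjusted p = 0.00473). S100a6 fell by -1.33 ± 0.35 (adjusted p = 0.033).

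Krt8, Krt18 and Epcam, markers of luminal cells in general, changed by -0.07, -0.33 and 0.03 over the same arrays, none of them called. In the luminal epithelium list 2 of 25 genes tested rose (8%, against 3.02% of all genes tested) and 2 fell (8%, against 1.42%), with a median of 0.07. The 2 that fell were Aldh1a3, a retinal dehydrogenase of luminal progenitors (-2.53 ± 0.43; adjusted p = 0.00125), and Krt7 (-1.62 ± 0.45; adjusted p = 0.0412); the 2 that rose were Elf5 and the claudin Cldn8 (1.79 ± 0.48; adjusted p = 0.0353). Per array, the median level of the hormone-sensing list relative to gene means was 1.96, 1.10 and 0.77 in virgins and -0.38, 0.21 and 0.01 at dp12. Esr1 was not called without virgin replicate 1 or 2 or any 1 of the dp12 arrays (adjusted p up to 0.186), nor Krt7 without any 1 mutant array, wild-type virgin replicate 3 or any wild-type dp12 array. Cldn8 kept its call without virgin replicate 1 but not without any other mutant array. With body weight as a covariate 3 of the 11 hormone-sensing genes were called.

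The paracrine signals of hormone-sensing cells that were measured did not pass the test. Tnfsf11 (RANKL), through which progesterone drives neighbouring cells to divide, read 9.15, 6.25 and 5.43 in virgin replicates 1, 2 and 3 and 6.61, 6.73 and 7.11 at dp12. Virgin replicate 1 was above all dp12 arrays and the other virgin arrays were below them, so the mean change was -0.13 ± 0.55 (adjusted p = 0.987). Wnt4, another progesterone target, changed by -0.03 ± 0.34 (adjusted p = 0.997). Among 15 steroid receptors and partners tested, 5 fell and none rose, with a median of -0.18. Besides Pgr, Foxa1 and Esr1 these were Tbx3, a transcription factor of hormone-sensing cells (-1.41 ± 0.29; adjusted p = 0.00571), and Greb1, an oestrogen receptor cofactor and target (-0.76 ± 0.20; adjusted p = 0.0331). Gata3, which luminal cells of all kinds need, changed by 0.12 and was not called. Of 20 oestrogen and progesterone targets tested 3 fell and none rose: Stc2, a secreted glycoprotein, from 8.62, 8.84 and 8.38 to 6.77, 6.76 and 7.09 (-1.74 ± 0.23; adjusted p = 0.000204), Greb1, and Wnt5a (-0.71 ± 0.20; adjusted p = 0.045). Greb1 was not called without any 1 mutant array, nor Wnt5a without any 1 wild-type array or any 1 mutant array other than virgin replicate 3. Greb1 passed the filter only through the mutant virgins. Its values lay below the array medians in the mutant dp12 and the wild-type V and dp12 arrays.

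Several of the largest falls were outside these lists. Fgb, the fibrinogen β chain, read 8.09, 9.42 and 6.51 in virgins and 3.75, 3.98 and 3.85 at dp12 (-4.15 ± 0.57; adjusted p = 0.000264). The virgin arrays differed widely from each other, whereas the dp12 values were close together and below every array's median. Of the 5 liver genes tested, 1 fell (20%, against 1.42% of all genes tested), which was Fgb. Cxcl15, a chemokine, was even in both groups, at 9.79, 9.90 and 9.77 and then 6.04, 6.31 and 6.03 (-3.69 ± 0.37; adjusted p = 1.97e-05). Ptn, the growth factor pleiotrophin, fell by -2.74 ± 0.32 (adjusted p = 0.000106), Arg1, which hydrolyses arginine, by -2.68 ± 0.32 (adjusted p = 0.000117), and Cyp3a57, a cytochrome P450, by -2.98 ± 0.23 (adjusted p = 5.86e-07); the dp12 values of Arg1 and Cyp3a57 were likewise below the medians of their arrays. Cyp3a57 passed the filter only through the mutant virgins, in which it was high. The other genes among the 15 largest falls were Pof1b (-2.57), Nrxn3 (-2.49), Capsl (-2.41) and Clic6 (-2.40), beside genes described with their lists.

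Milk genes rose unevenly. Of 23 casein and whey genes tested, 5 rose and none fell, with a median change of 0.88. Wap, the whey acidic protein, read 5.45, 4.88 and 7.11 in virgins and 11.05, 10.01 and 8.98 at dp12, a rise of 4.20 ± 0.58 (18.4-fold; adjusted p = 0.000281). Lao1, an amino acid oxidase of milk, rose by 3.84 ± 0.83 (adjusted p = 0.00938), although virgin replicate 3, at 8.78, was close to the dp12 values of 10.88, 10.55 and 9.35. Glycam1, a mucin of milk, read 9.99, 10.59 and 7.48 and then 12.82, 12.74 and 12.58 (3.36 ± 0.87; adjusted p = 0.0297). Pigr, which carries antibodies into milk, rose by 3.09 ± 0.56 (adjusted p = 0.00204).

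Casein levels were uneven among the virgins. Csn2 read 12.22, 10.17 and 12.69 and then 12.94, 12.93 and 12.87, so the dp12 arrays were nearly equal, virgin replicate 2 lay apart, and the change of 1.22 ± 0.40 was not called (adjusted p = 0.0944). Csn1s2a had the same pattern, at 11.09, 8.99 and 12.00 and then 12.46, 12.43 and 12.46, and passed (1.75 ± 0.44; adjusted p = 0.0253). Lalba, the regulator of lactose synthase, had overlapping groups, with 11.12 in virgin replicate 3 and 8.54 in dp12 replicate 3 (0.88 ± 1.03; adjusted p = 0.838). In Wap, Lao1 and Glycam1 the dp12 order was the reverse of that in the mitosis genes: replicate 1, from the heaviest mouse, was highest and replicate 3 lowest. The count for the list was 3 without virgin replicate 2, dp12 replicate 1 or dp12 replicate 3 and 2 without dp12 replicate 2. Csn1s2a lost its call in these 4 cases, Glycam1 without virgin replicate 3 or any dp12 array and Lao1 without virgin replicate 2 or dp12 replicate 2, and 2 genes were called with body weight as a covariate.

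The promoter of Glycam1, at chr15:103565032-103565331, minus strand, is shown because prolactin acts on milk genes through STAT5; capitals mark the STAT letters (TTCNNNGAA).
Glycam1: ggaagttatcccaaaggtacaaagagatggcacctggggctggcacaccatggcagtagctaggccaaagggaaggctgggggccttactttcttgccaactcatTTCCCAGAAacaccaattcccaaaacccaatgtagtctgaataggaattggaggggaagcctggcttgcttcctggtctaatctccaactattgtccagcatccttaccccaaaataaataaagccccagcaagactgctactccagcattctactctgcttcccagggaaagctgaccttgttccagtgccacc
STAT letters were in 6 of 19 promoters of the list (31.6%), for 18 of the 23 genes, and in 7.0% of promoters of the genes tested. The Wap promoter window held none. Glycam1 was picked by size of rise from called genes of the list with STAT letters in a promoter, so its match follows from the choice.

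Of the 26 regulators of prolactin signalling and alveolar fate that were tested, 1 rose, Elf5, and none fell, with a median of 0.10. That is 3.85% higher, near the 3.02% of all genes tested. Elf5, the transcription factor that commits cells to the alveolar fate, read 7.81, 6.55 and 8.47 in virgins and 9.30, 9.50 and 9.28 at dp12 (1.75 ± 0.46; adjusted p = 0.0331), and lost its call without virgin replicate 1 or 2 or any 1 dp12 array (adjusted p up to 0.271). Stat5a, which carries the prolactin signal, changed by 0.62 ± 0.33 (adjusted p = 0.408) and Ehf, a factor related to Elf5, by 1.54 ± 0.77 (adjusted p = 0.357).

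Fatty acid synthesis rose in its central steps. Of 27 genes tested 7 rose and none fell, with a median change of 0.78. The largest measured rise was that of Olah, the thioesterase that ends chains at medium length for milk fat: 4.79, 4.13 and 4.60 in virgins and 10.64, 10.93 and 9.83 at dp12, a measured rise of 5.96 ± 0.65 (adjusted p = 6.33e-05). Its virgin values lay below the median of every array, so no fold is given. Fasn, the fatty acid synthase on which it acts, read 9.12, 9.13 and 9.31 and then 11.85, 11.81 and 11.37 (2.49 ± 0.52; adjusted p = 0.00718). Thrsp (Spot 14), a stimulator of lipogenesis, rose by 2.63 ± 0.44 (adjusted p = 0.00121), Acaca, which makes malonyl-CoA, by 2.04 ± 0.50 (adjusted p = 0.0219), the desaturase Fads1 by 1.75 ± 0.36 (adjusted p = 0.00583), Acly, which makes cytosolic acetyl-CoA, by 1.54, and the regulator Srebf1 by 1.33. Scd1, a desaturase, changed by 0.78 and was not called. The count was 3 without virgin replicate 2 and 4 without dp12 replicate 1 or 2; Acaca was not called in these cases nor without virgin replicate 3, and Fads1 not without virgin replicate 2.

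Of 21 sterol synthesis genes tested 3 rose, namely Hsd17b7 (1.48 ± 0.26; adjusted p = 0.00183), Fdps (1.37 ± 0.37; adjusted p = 0.039) and Pmvk (0.94 ± 0.24; adjusted p = 0.0274), and none fell. The list's median was 0.42, and neither Fdps nor Pmvk was called with either housekeeping scaling, without virgin replicates 1 or 2, or without any 1 dp12 array; Fdps was also lost without virgin replicate 3 or wild-type dp12 replicate 2. Of 22 genes of triglyceride and milk fat globule assembly 1 fell and none rose, with a median of 0.59. The 1 that fell (4.55%, against 1.42% of all genes tested) was Lpin2, a phosphatidate phosphatase (-1.03 ± 0.28, adjusted p = 0.0363). Its call held without virgin replicate 3 but not without any other mutant array, nor with a gene's probe sets averaged. Lpin1, which has the same activity, was higher in every dp12 array, at 10.39, 10.73 and 10.65 against 8.67, 7.75 and 9.30, but missed the threshold (2.01 ± 0.62; adjusted p = 0.0747). Gpd1, which supplies glycerol phosphate, passed among the adipocyte markers (1.97 ± 0.51, adjusted p = 0.0285), though not with probe sets averaged or without any 1 mutant array other than virgin replicate 3. It was 1 of 17 white adipocyte genes tested to do so (5.88%, against 3.02% of all genes tested), and their median was 0.14.

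Single enzymes of amino acid metabolism were among the larger changes. Gldc, the glycine-cleaving decarboxylase of mitochondria, read 5.37, 5.29 and 5.46 in virgins and 9.74, 9.59 and 8.72 at dp12, a rise of 3.97 ± 0.53 (15.7-fold; adjusted p = 0.000231). Amt, another protein of the same cleavage system, rose by 1.48 ± 0.31 (adjusted p = 0.00757), and Phgdh, which starts serine synthesis, by 1.56 ± 0.30 (adjusted p = 0.00368). Mthfd2, a mitochondrial folate enzyme, fell by -1.88 ± 0.42 (adjusted p = 0.0117), from 7.57, 8.58 and 8.25 to 6.07, 6.30 and 6.38. Those were the 3 higher and 1 lower of 27 glycine, serine and one-carbon genes tested, whose median was 0.33. The shares were 11.1% higher and 3.7% lower, against 3.02% and 1.42% of all genes tested. Neither Amt nor Mthfd2 was called without virgin replicate 2 or with body weight as a covariate.

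In cysteine and glutathione metabolism 4 of 28 genes tested fell and none rose, with a median of -0.40. Cdo1, which oxidises cysteine on the way to taurine, read 10.22, 9.49 and 8.81 and then 6.09, 6.43 and 6.58 (-3.14 ± 0.52; adjusted p = 0.00111). Slc7a11, the cystine importer, read 8.70, 9.90 and 9.90 and then 6.50, 6.28 and 6.55 (-3.06 ± 0.59; adjusted p = 0.00378). Gclc, which catalyses the first step of glutathione synthesis, fell by -1.45 ± 0.34 (adjusted p = 0.0165) and the extracellular peroxidase Gpx3 by -1.52 ± 0.21 (adjusted p = 0.000264). Hmox1, the haem oxygenase, was lower in all dp12 arrays (7.96 to 8.84 against 9.68 to 10.80) but did not pass (-2.08 ± 0.71; adjusted p = 0.114). Gclc was not called without virgin replicate 2 or any dp12 array. With body weight as a covariate 1 of the 28 was called, Gpx3, and with housekeeping centring 10 were.

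Of 30 milk transporters tested 2 rose (6.67%, against 3.02% of all genes tested) and 4 fell (13.3%, against 1.42%), with a median of 0.36. Slc34a2, a phosphate transporter, rose by 3.19 ± 0.78 (adjusted p = 0.0203) from values of 5.19 to 6.80 to values of 8.93 to 9.22. Atp7b, which exports copper, rose by 2.65 ± 0.36 (adjusted p = 0.000264). Besides Aqp5 the falls were in the iodide transporter Slc5a5 (-1.93 ± 0.43; adjusted p = 0.0111), the arginine transporter Slc7a2 (-1.86 ± 0.43; adjusted p = 0.014) and the chloride cotransporter Slc12a2 (-1.55 ± 0.43; adjusted p = 0.0422). Slc34a2 was not called without virgin replicate 1 or 2 or any dp12 array; Slc5a5 was lost without virgin replicate 3, Slc7a2 without virgin replicate 1, and both without dp12 replicate 2 or 3.

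Part of the mitochondrial respiratory chain rose by moderate amounts. Of 49 genes tested 10 rose and none fell, with a median of 0.74; 47 changes were above 0 before any rescaling. Ndufa5, a complex I subunit, read 5.19, 5.26 and 5.02 and then 5.80, 6.25 and 6.57 (1.05 ± 0.20; adjusted p = 0.00265), and Uqcrc1, of complex III, rose by 0.97 ± 0.21 (adjusted p = 0.0076). Cox4i1, of complex IV, went from 9.00, 9.19 and 9.62 to 10.39, 10.11 and 10.29 (0.99 ± 0.27; adjusted p = 0.0357), Cyc1 rose by 0.99 ± 0.25 (adjusted p = 0.0267) and Cox7c by 1.39 ± 0.37 (adjusted p = 0.0358). The count was 1 with housekeeping centring and 15 with arrays shifted by the housekeeping deviations. It was 2, 5, 1 and 2 without virgin replicate 2 and dp12 replicates 1, 2 and 3; Cyc1 was not called without any 1 mutant array, Cox4i1 without any but virgin replicate 3, Cox7c without any but virgin replicate 1, and Uqcrc1 without dp12 replicate 2. Cytosolic ribosomal proteins did not pass in any of 43 genes tested (median 0.24), nor did ribosome biogenesis genes in any of 29 (median -0.10). In the secretory pathway 1 of 37 passed and was lower (2.7%, against 1.42% of all genes tested). It was Herpud1, a protein of endoplasmic reticulum quality control (-1.16 ± 0.29, adjusted p = 0.0243). Herpud1 was not called without any 1 mutant array other than virgin replicate 1.

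Apln, the peptide ligand of the apelin receptor, which acts on vessels, was among the largest rises, at 5.67, 4.57 and 5.00 in virgins and 9.20, 8.78 and 8.41 at dp12 (3.71 ± 0.45; 13.1-fold; adjusted p = 0.000117). With Vegfb (0.66 ± 0.18; adjusted p = 0.0426) it made up the 2 of 17 angiogenic genes that rose, whose median was -0.22; Vegfb was not called without any 1 mutant array or any 1 wild-type dp12 array. None of 20 endothelial markers passed, and their median was -0.37. Pathways outside the lists held other large rises, among them Fam20a (3.27 ± 0.64; adjusted p = 0.00418), a pseudokinase that aids phosphorylation of secreted proteins, Ankrd22 (3.12 ± 0.60; adjusted p = 0.00356) and Hephl1 (3.12 ± 0.58; adjusted p = 0.0027), a ferroxidase. Hephl1 was not called with body weight as a covariate (adjusted p = 0.0571).

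Markers of other cell types passed in small numbers, and their part in the changes above was not tested. Over all genes tested 3.02% were higher and 1.42% lower. Higher genes were 15.8% of the basal and myoepithelial, 16.7% of the brown adipocyte and 4.35% of the housekeeping list. Lower genes were 7.69% of the fibroblast and collagen list and 12.5% of the keratinocyte list. In wild type 6 of the 19 basal and myoepithelial genes were higher. Of 26 fibroblast and collagen genes 2 fell, Dpt (-1.36 ± 0.35; adjusted p = 0.0298) and Dcn, the proteoglycan decorin (11.52 to 12.00 in virgins and 10.59 to 11.01 at dp12; adjusted p = 0.0307), with a median of -0.38; neither was called without virgin replicate 1 or 2 or any 1 dp12 array. Of 19 basal and myoepithelial genes 3 rose: Igfbp2 (1.65 ± 0.31; adjusted p = 0.00265), the smooth muscle actin Actg2 (1.44 ± 0.28; adjusted p = 0.00378) and Acta2 (0.68 ± 0.19; adjusted p = 0.0393). Acta2 was not called with either housekeeping scaling, without any mutant array but virgin replicate 1, or without wild-type virgin replicate 3 or any wild-type dp12 array. None of 21 T and B lymphocyte genes passed, though all 21 changes were below 0 and their median was -0.67. Their level relative to gene means was 0.12, 1.28 and -0.45 in virgin replicates 1, 2 and 3 and -0.12, -0.47 and -0.41 at dp12, so virgin replicate 2 stood apart and virgin replicate 3 lay within the dp12 range; Cd79a, a B cell receptor component, read 5.82, 7.64 and 4.73 in virgins and 4.70 to 5.36 at dp12. None of 22 macrophage and neutrophil genes, 8 plasma cell genes, 13 skeletal muscle genes or 7 peripheral nerve genes passed. Of 8 keratinocyte genes 1 fell, Krt6a (-1.86 ± 0.47; adjusted p = 0.0262), whose virgin values were 5.38, 7.27 and 4.54; it was not called without virgin replicate 2 or any 1 dp12 array. Krt6a exceeded the array median in 2 mutant virgin arrays, 1 wild-type virgin array and no dp12 array. It was not tested when 6 arrays had to exceed their median. Of 6 brown adipocyte genes 1 rose, Cox7a1 (0.75 ± 0.21; adjusted p = 0.0462), a call that ended without any 1 mutant array, wild-type virgin replicate 1 or 3, or wild-type dp12 replicate 2. The housekeeping list had a median of 0.05, and 1 of its 23 genes rose, Tfrc, the transferrin receptor (1.39 ± 0.38; adjusted p = 0.0385), which lost its call without any 1 mutant array or wild-type dp12 replicate 1.

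Other settings ended the calls of named genes as follows. Of 96 named genes called, 33 lost their call with body weight as a covariate: Acaca, Acta2, Amt, Anxa9, Aqp5, Cdo1, Cldn8, Cox7a1, Cox7c, Csn1s2a, Dcn, Dpt, Elf5, Esr1, Fdps, Fen1, Gclc, Glycam1, Gpd1, Hephl1, Herpud1, Krt7, Lao1, Lpin2, Mthfd2, Plagl1, Pmvk, Slc34a2, Slc35f3, Slc7a11, Tfrc, Vegfb and Wnt5a. Housekeeping centring ended 11 calls, those of Acta2, Cox4i1, Cox7a1, Cox7c, Csn1s2a, Cyc1, Fdps, Ndufa5, Pmvk, Uqcrc1 and Vegfb, and the housekeeping deviations ended 8, those of Acta2, Cox7a1, Cox7c, Csn1s2a, Fdps, Greb1, Pmvk and Vegfb. With no filter on low values Cdc25a, Fdps, Krt7, Mcm2, Mcm3 and Tfrc were lost, with the compared groups alone Csn1s2a and Krt6a, and with a variance trend Vegfb. Wild-type replicate numbers used as a block ended 8 calls, those of Cdc25a, Cldn8, Cox7a1, Krt7, Mcm2, Mcm3, Vegfb and Wnt5a. Body weight and stage moved together in the mutants, and their parts in these changes were not tested.

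In wild type the same step raised 901 genes (5.91%) and lowered 82 (0.538%), with a median of 0.28 over all genes tested against 0.01 in mutants. Of the genes higher in mutants 294 were also called higher in wild type, 63.9% of the mutant list and 32.6% of the wild-type one. Of those lower in mutants 28 were called lower in wild type, 12.9% of the mutant and 34.1% of the wild-type list. The mitosis list had a median of 1.87 in wild type with 55 of 61 genes higher, the fork list 1.16 with 19 of 37 and the casein and whey list 1.07 with 6 of 23. The hormone-sensing list had a median of -0.43 with 3 of 11 lower. The step itself was then compared between genotypes by an interaction contrast in the same fit.

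The difference passed for 1 gene of 15234 (0.00656%), Cyp3a57, and 907 genes had an unadjusted p under 0.05. That count depended on how the spread was estimated: it was 4302 with array weights, 1571 with the compared groups alone and 478 without the 3 arrays of lowest correlation. Among the 907 the mutant change was below the wild-type change in 778 (5.11%) and above it in 129 (0.847%). Over all genes tested the median change was 0.28 in wild type and 0.01 in mutants. Wild-type virgin replicates 1, 2 and 3 had median correlations to the other arrays of 0.91, 0.92 and 0.91. Mutant virgins had 0.96, 0.95 and 0.96. The median SD over genes was 0.27 in wild-type virgins and 0.22 in mutant virgins. The part of these arrays in the difference was not tested. Cyp3a57 read 7.22, 6.15 and 6.97 in mutant virgins and 5.07, 4.33 and 4.62 in wild-type virgins. At dp12 it was 3.64, 3.87 and 3.87 in mutants and 3.79, 3.71 and 4.18 in wild type. Only the mutant virgin values exceeded their arrays' medians (5.31 to 5.62 over all arrays), so the differences are measured against dim values. The filter needed 3 arrays above their own median, which the mutant virgins supplied. The gene was thus tested only through the group in which it was high. The virgin groups did not overlap and the dp12 groups did, and the change in mutants was lower by -2.21 ± 0.33 (SE; adjusted p = 0.0252). That call held without virgin replicate 2 of the mutants or without wild-type virgin replicate 1, and was lost without any other single array of the 4 groups. It was also lost with housekeeping centring (adjusted p = 0.174), the housekeeping deviations (adjusted p = 0.106) or a variance trend (adjusted p = 0.411), and the gene was not among those tested when 6 arrays had to exceed their median.

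Pgr came next among genes with a known role in these cells. It read 6.59, 5.62 and 7.22 in wild-type virgins and 5.85, 5.77 and 6.53 in wild-type dp12 arrays, so wild-type groups overlapped where mutant groups were apart, and the difference of the steps was -2.22 ± 0.45 (unadjusted p = 6.92e-05; adjusted p = 0.351). Cdo1 read 7.22, 7.01 and 8.11 in wild-type virgins and 7.22, 7.25 and 7.72 at dp12, a difference of -3.09 ± 0.74 (adjusted p = 0.695). For Aldh1a3 it was -2.52 ± 0.61 (adjusted p = 0.695), with 7.15 to 7.73 in wild-type virgins and 6.41 to 8.11 at dp12. In Pgr, Cdo1 and Aldh1a3 all 3 mutant virgin values lay above all 3 wild-type virgin values. These genes were chosen by a small p for this difference or a large mutant fall, which favours such separation. None of their differences passed. Esr1 behaved less clearly, with 7.24 to 7.49 in wild-type virgins around the lowest mutant virgin value of 7.28 (difference -1.21 ± 0.57; adjusted p = 0.695). The other genes among the 10 of smallest p were Mir1933 (-2.18), Anxa9 (-1.11), Slc35f3 (-1.54), Plagl1 (-1.26), Nrbp2 (-1.89) and Mir1192 (-2.02), all with adjusted p of 0.218 or more. Anxa9 passed the filter only through the mutant virgin arrays, as Cyp3a57 did. For Apln the difference was 2.12 ± 0.64 in the other direction (adjusted p = 0.695). The division genes gave no difference that passed: Mki67 changed by 3.37 in mutants and 3.00 in wild type, and Brca1 by 1.66 and 1.07.

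**Figure D3:**
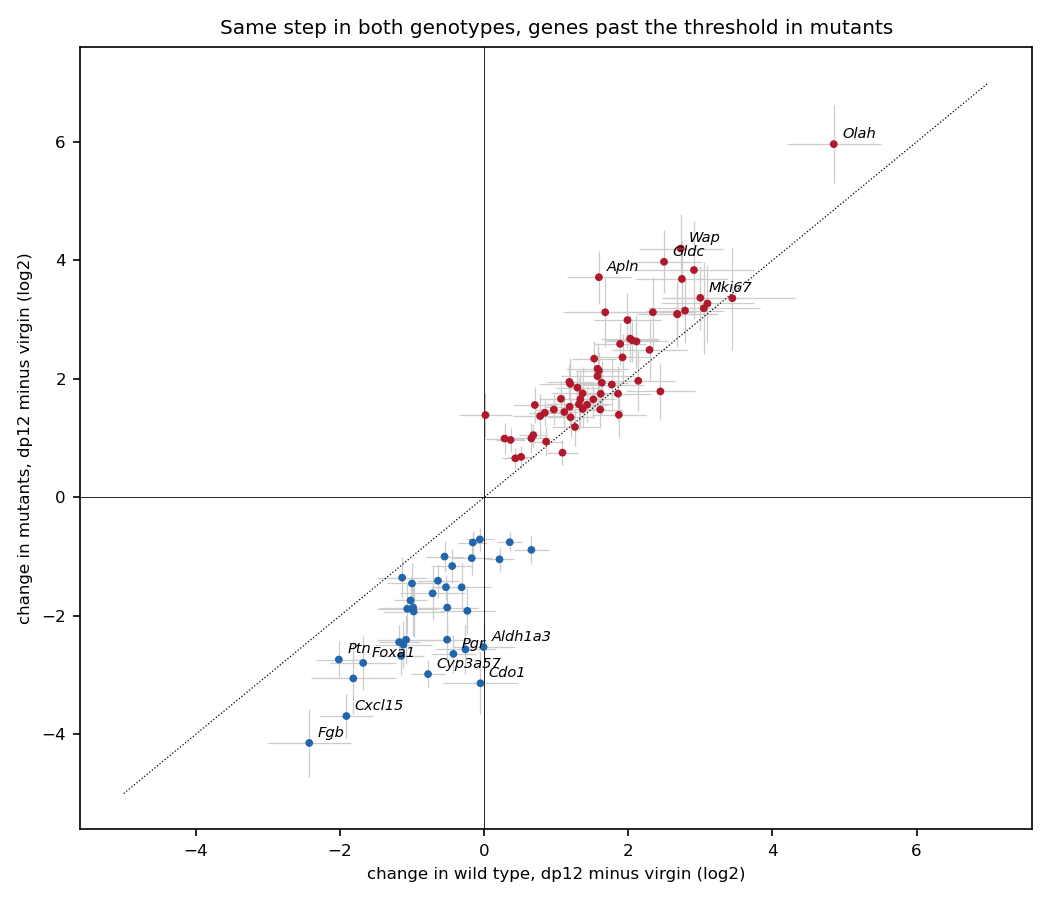
Change from V to dp12 (log2) in mutants against the change in wild type for the 96 named genes that passed in mutants, with bars of 1 SE and a dotted line of equal change; red rose and blue fell in mutants. The genes were chosen by their mutant change, which favours points beyond the line; Cyp3a57 is the 1 gene whose difference passed, at -2.21.

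The dp12 level was the peak of division genes among the mutant stages. The mitosis list's mean level relative to gene means was -0.99 ± 0.32 (SD, n = 3) at V, 1.16 ± 0.37 at dp12, 0.28 ± 0.45 at dp18 and -0.62 ± 0.55 at Lac10; the dp12 arrays (0.79 to 1.53) did not overlap the dp18 arrays (-0.22 to 0.64). Mki67 followed with means of 6.21 ± 0.80, 9.58 ± 0.37, 8.65 ± 0.56 and 7.02 ± 1.11. Hormone-sensing genes went from 1.28 ± 0.61 at V to -0.05 ± 0.30 at dp12, -0.60 ± 0.07 at dp18 and -0.32 ± 0.46 at Lac10, and Pgr from 8.28 ± 0.24 to 5.64 ± 0.19, 5.07 ± 0.52 and 5.05 ± 0.22. Casein and whey genes had reached 0.27 ± 0.24 by dp12 and were at 0.22 ± 0.33 and 0.29 ± 0.35 afterwards, ranges that overlapped. Wap was at 10.01 ± 1.03 at dp12, 10.92 ± 0.30 at dp18 and 10.80 ± 1.07 at Lac10. Fatty acid synthesis genes were at 0.39 ± 0.13 at dp12, 0.10 ± 0.17 at dp18 and -0.19 ± 1.05 at Lac10, where single arrays lay between -1.12 and 0.95. The dp18 and Lac10 groups each hold 1 array with a median correlation to the others of 0.863 and 0.799, the lowest of the mutant arrays, and no test was made across these later stages.

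**Figure D4:**
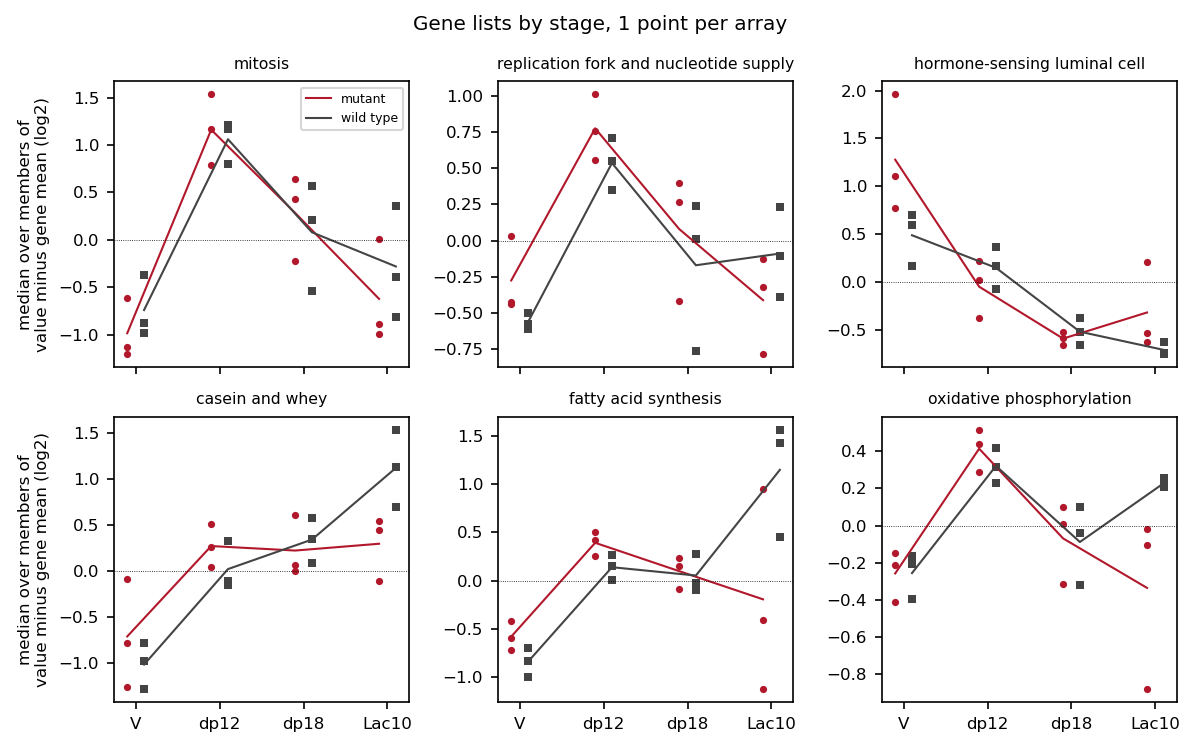
Median over list members of each gene's value minus its mean over all arrays (log2), 1 point per array, for 6 lists at V, dp12, dp18 and Lac10 in mutants (red circles) and wild type (grey squares), with lines through group means of 3 arrays. In mutants the mitosis list is highest at dp12 (0.79 to 1.53) and the hormone-sensing list highest at V (0.77 to 1.96).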

How the data were processed

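Expression was measured on 24 single-colour arrays. The deposited values are log2 intensities from RMA, per the submitters' processing notes, with no version stated. RMA evens out intensities between arrays, so part of a change shared by most genes may have been removed. The deposited values were not fully evened: array medians ran from 5.31 to 5.62. From V to dp12 the median change over all genes tested was 0.28 in wild type and 0.01 in mutants. How much of a shared change was removed was not tested. Per the labels' protocols, Trizol-extracted total RNA was turned into biotinylated cRNA for the arrays.

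The table has 41345 probe sets. In GEO's platform annotation 23521 have a single symbol, and the 1814 with several and 16010 without any were not named. The first kind hold 22180 genes, each represented by its probe set of highest mean (1082 have more than 1). The filter required 3 arrays above their own median (15234 genes kept, 6946 removed). limma 3.58.1 in R 4.3.3 (lmFit and eBayes) was fitted to all 24 arrays with 1 mean per group, contrasts were adjusted by Benjamini-Hochberg over all genes tested, and the threshold was 0.05. The fit was tested on simulated data. Replicate numbers of mutants are in accession order and pair nothing. Columns of other samples numbered 0.

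The members and the 39 gene lists were chosen with earlier results of these data known. Named were the 15 largest rises and falls without overlap, up to 5 called members per list (or 2 as values), the 10 smallest p for the genotype difference, and a fixed set including Brca1, Esr1, Pgr, Wee1 and Cdkn1a. Other genes were named, after their values were seen, to complete a small count or as a contrast within a list. Prlr, Areg, Ccnb1 and Krt5 have no probe set with a single symbol and are not analysed here. Promoters are from RefSeq (GRCm38.p6) and matched 11867 of the 15234 genes by symbol.

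Alternatives covered the probe set rule, the filter, 2 ways of centring, a variance trend, array weights, the compared groups alone, omission of the 3 arrays of lowest correlation, body weight, a wild-type replicate block and each array left out. A shift by housekeeping deviations was added after seeing the data.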

Additional observations from a re-analysis of the deposited data

Results flagged for a closer look

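Cyp3a57 was singled out because its V to dp12 step differed between genotypes by a direct test. The mutant change minus the wild-type change was -2.21 on the log2 scale, with an adjusted p of 0.0252 in limma. The gene fell by -2.98 in mutants and by -0.78 in wild type, where it was not called. Its values exceeded the array medians in the mutant virgins alone, so the wild-type change lies between dim values and the difference is one of measured values. The filter needed 3 arrays above their own median, so the gene was tested only through the mutant virgins, the group in which it was high. The call was lost with either housekeeping scaling and with a variance trend (adjusted p of 0.174, 0.106 and 0.411). Cross-hybridisation with other genes of the Cyp3a family was not tested.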

How the results depend on the processing

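The mutant counts of 460 higher and 217 lower genes kept to within 1.5 times with probe sets averaged, with no filter, with 6 arrays needed to pass it, with arrays centred on their own median and with a variance trend. Array weights gave 2594 higher, 1510 lower and 4302 genes called for the genotype difference; the compared groups alone gave 1769, 1002 and 1571, and omitting the 3 arrays of lowest correlation 1115, 490 and 478. Under these 3 settings, in that order, casein and whey genes higher numbered 13, 9 and 9, respiratory genes 41, 32 and 32 and fork genes 35, 32 and 29. Array weights also gave 22 licensing genes, 16 fatty acid genes and 12 cysteine and glutathione genes lower, and the compared groups alone 15 fatty acid genes and 8 cysteine and glutathione genes. Housekeeping centring gave 293 higher and 1272 lower, with 8 licensing, 8 repair, 1 respiratory and 10 cysteine and glutathione genes, and the housekeeping deviations 585 lower with 8 cysteine and glutathione genes. Body weight as a covariate, which leaves out 2 dp18 arrays without a weight, gave 88 lower and 2 genes for the difference, with 2 casein and whey, 4 fatty acid, 3 hormone-sensing and 1 cysteine and glutathione genes. The difference had 0 genes with the 6-array filter, which removed Cyp3a57 from the genes tested, and 0 with the trend, where its adjusted p was 0.411. The other causes were not tested.

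With 1 array of the compared groups left out, higher genes ranged from 165 to 452, lower from 88 to 236, the difference from 0 to 1, mitosis from 48 to 59, licensing from 4 to 14, fork from 4 to 21, repair from 7 to 19, hormone-sensing from 4 to 6, casein and whey from 2 to 6, fatty acid from 3 to 7, cysteine and glutathione from 3 to 4 and respiratory from 1 to 11. Of 96 named genes called, none changed sign, 46 kept their call under every alternative in which they were tested (44 under all 24, and Cyp3a57 and Gins1 under 23, since the 6-array filter removed them) and 50 lost it under at least 1. Of 35 named genes not called, 28 passed under at least 1. Wild-type V and dp12 arrays of the same number had correlations of 0.0932, 0.0277 and 0.0146, on a measure other than the whole-array correlations above. With numbers crossed they ran from -0.148 to 0.109. So few arrays cannot settle whether the numbers pair them. As a block the numbers gave 399 higher and 204 lower genes and 1 difference. Counts of the lists in the ranges above stayed within 1.5 times. In other lists 4 results moved further, and Cldn8, Krt7, Cox7a1 and Vegfb were among the calls lost. The mutant labels give no replicate number, so nothing else could be paired. Depth has no equivalent here; the number of arrays limits the precision.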
